A study of Mus musculus with 2 samples.

Results

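The 10 genes described here code for secreted or surface ligands with immunoregulatory or angiogenic roles: Cd274, Pdcd1lg2, Tgfb1, Il10, Vegfa, Prok2, Lgals1, Lgals3, Lgals9 and Igfbp6. They were taken by name from the 27998 gene rows of the count tables, and all 10 are in the tables. The list was chosen with earlier results of these data known. Its counts beside the shares of all genes are therefore a description. Their UMIs (unique molecular identifiers, 1 per captured transcript) were summed over the cells of a class in each library and scaled to the total of that class as CPM, the count per 1000000 UMIs. The study sorted CD11b+ Gr1+ cells, the gate used for neutrophils and monocytes of tumour-bearing mice, from spleen and profiled them by 3' single-cell RNA sequencing in droplets. One library was made from 5 pooled mice of strain FVB/n, here called wild type. The other was made from 3 pooled tumour-bearing PyMT mice, which carry the polyoma middle T oncogene and form mammary tumours. The labels give no treatment, and the promoter of the transgene, the background strain of the PyMT mice and the age and sex of the animals are not given in the sources used here. With 1 library per group there is no replicate check and no test: every interval below is a 95% interval for counting error only, and the mice of a pool cannot be told apart.

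PD-L1 (Cd274) and PD-L2 (Pdcd1lg2) are membrane ligands of the inhibitory receptor PD-1 on T cells, and TGF-beta 1 (Tgfb1) and interleukin 10 (Il10) are secreted cytokines that restrain immune responses. VEGF-A (Vegfa) and prokineticin 2 (Prok2, also known as Bv8) act on endothelial cells, and Prok2 is known as a product of myeloid cells that G-CSF signalling through STAT3 can induce. Galectins bind sugars on cell surfaces: galectin 1 and galectin 9 can restrain or kill T cells, and galectin 3 is abundant in myeloid cells. Igfbp6 binds insulin-like growth factors, with a preference for IGF-II, and holds them away from their receptor.

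Cells were classed by a few genes each. The neutrophil class has at least 10% of its UMIs from S100a8 and S100a9 and fewer than 2 from Cd79a and Cd79b. The monocyte class has under 5% S100a8 and S100a9 and at least 2 UMIs of Csf1r and Ccr2, and the B cell class has under 5% and at least 3 UMIs of Cd79a and Cd79b. Of 5491 wild-type cells, 3980 were in the neutrophil class, 530 in the monocyte class and 304 in the B cell class. Of 9150 PyMT cells the numbers were 5488, 1526 and 1081. The neutrophil class was split by the share of UMIs from Camp, a granule gene of myelocytes and metamyelocytes whose transcript is lost as neutrophils mature. At least 4% Camp was found in 3456 wild-type and 1619 PyMT cells, 1 to 4% in 468 and 1812, and under 1% in 56 and 2057. These tiers are ranges, not types: 300 wild-type and 915 PyMT neutrophils had 3.5 to 4.5% Camp, and 29 and 187 had 0.8 to 1.2%. The marker lists include the genes that set the classes, so their sums describe the classes and do not test the labels. The 12 neutrophil markers summed to 469400 CPM in the neutrophil class of both libraries and to 13220 and 20380 CPM in the monocyte class. The 9 monocyte markers summed to 4893 and 5653 CPM in the monocyte class of the wild-type and the PyMT library. The 6 B cell markers summed to 5567 and 6823 CPM in the B cell class. S100a8 and S100a9 alone made up 187100 and 123500 CPM of the wild-type neutrophil sum. The granule gene Ngp sets no class. It was at 47480 and 40560 CPM in the neutrophil class and 1202 and 1342 CPM in the monocyte class. The median monocyte-class cell held no Cd79a or Cd79b UMI, and the median neutrophil-class cell held no Csf1r or Ccr2 UMI, but 394 wild-type and 300 PyMT neutrophil-class cells held 2 or more of the latter. In each library 71 cells met both the monocyte and the B cell rule and were put in neither class. The median cell had 5630 and 8285 UMIs in the neutrophil class, 5476 and 7352 in the monocyte class and 3762.5 and 3420 in the B cell class. The libraries shared 72 cell barcodes.

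A gene was read as different between the libraries where its CPM differed at least 1.5-fold and it had at least 50 UMIs over both libraries. In the neutrophil class 8 of the 10 ligands had enough UMIs, all but Pdcd1lg2 and Il10; Vegfa was also too scarce in monocytes, and Il10 and Vegfa were too scarce in B cells. Prok2 and Igfbp6 were past the fold in the higher direction, which 7.11% of all 9927 genes were, and Cd274 and Vegfa in the lower direction, which 42.6% of all genes were. The median gene in this class was itself lower in the PyMT library, by a log2 ratio of -0.47, and the median of the 8 ligands was -0.03. Scaling by a trimmed mean of M-values (TMM) instead of the class total moved the median of all genes up by 0.45 and the share of higher genes among those past the fold from 14.3% to 47.7%. With it 4 ligands were higher (Lgals3 and Lgals9 as well), 0 were lower, and 16.7% and 18.3% of all genes were. The lower calls of Cd274 and Vegfa thus do not stand out from the general shift of this class. In the monocyte class 2 of 7 ligands were higher (Prok2 and Igfbp6; 8.77% of all genes) and 1 was lower (Cd274; 7.77% of all genes). In the B cell class 2 of 8 were higher (the same 2; 12.9% of all genes) and 1 was lower (Lgals1; 4.19% of all genes). The ligands' medians were 0.39 in monocytes and 0.40 in B cells, beside 0.02 and 0.11 for all genes.

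Within the Camp tiers, Prok2 and Igfbp6 were again past the fold. Among neutrophils with at least 4% Camp 2 of 7 ligands were higher, against 3.21% of genes, and 2 were lower (Vegfa and Lgals1), against 41.1%. The Vegfa call was lost under 5 alternatives, with log2 ratios from -0.57 to -0.11, in place of -0.60. With 1 to 4% Camp 3 of 7 were higher (Lgals9 as well), against 5.31%, and 2 were lower (Tgfb1 and Lgals1), against 49.2%. The Lgals9 call here, at 0.62, was lost with equal weight per cell (0.54), with stricter classes (0.48) and without cells holding 2 or more Csf1r and Ccr2 UMIs (0.38). The Tgfb1 call, at -1.31, was lost with TMM (-0.57), with median-of-ratios scaling (-0.54), with stricter classes (-0.46) and without those cells (-0.45). With under 1% Camp 2 of 6 were higher, against 18.6%, and 1 was lower (Lgals1), against 33.7%. The share of higher genes among those past the fold was 7.26%, 9.75% and 35.5% in the 3 tiers, and 39.2%, 61.7% and 71.8% with TMM. The ligands' medians were 0.31, 0.19 and 0.03, beside -0.45, -0.57 and -0.23 for all genes. The plot of ratios by class shows Prok2 and Igfbp6 apart from the other members in all 6 panels.

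**Figure D1:**
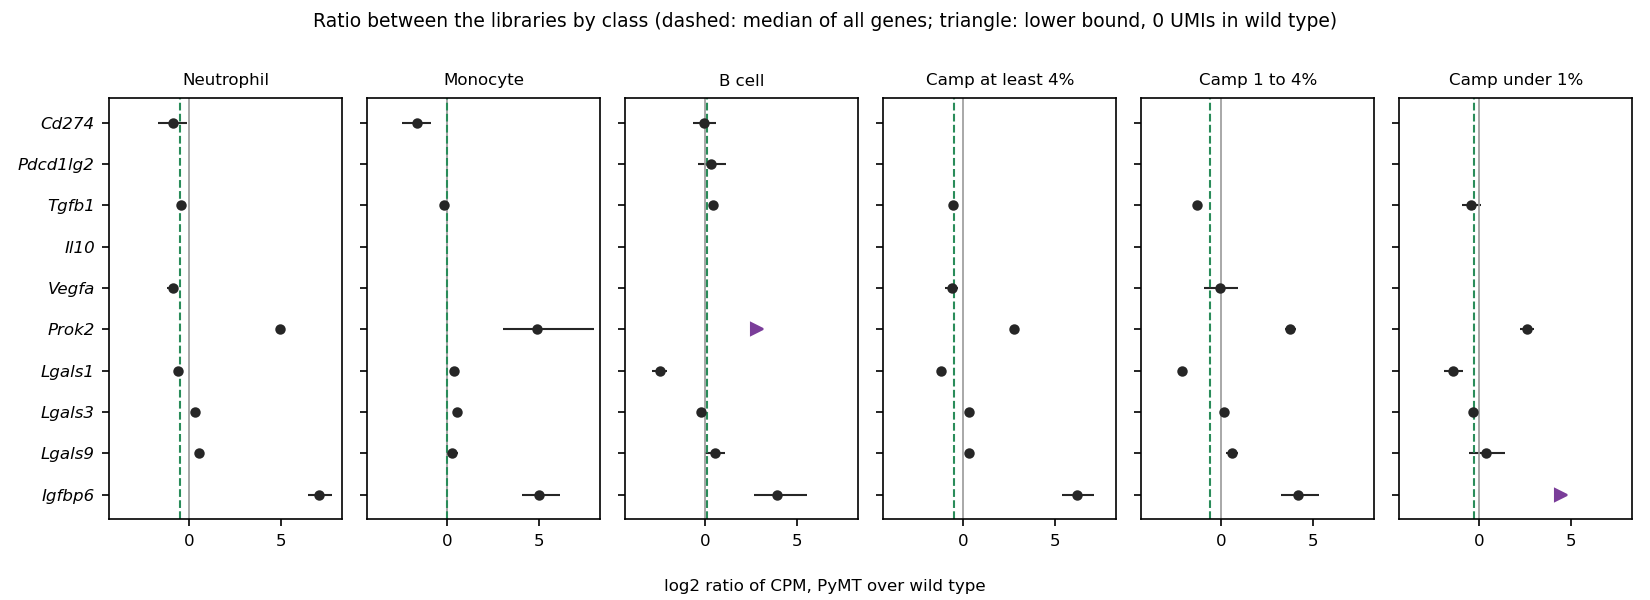
Log2 ratio of CPM between the PyMT and the wild-type library (x axis) for each ligand with at least 50 UMIs (y axis), in the 3 classes and the 3 Camp tiers of the neutrophil class. Points are ratios, bars 95% counting intervals and triangles lower bounds; the dashed line is the median of all genes, and Prok2 and Igfbp6 lie farthest to the right in each panel.

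Prok2 and Igfbp6 are the members the comparison turns on, and the 300 bases around their RefSeq starts (250 before and 50 after) are shown to compare their promoters. The Prok2 window is chr6:99726343-99726642 on the minus strand and the Igfbp6 window chr15:102143936-102144235 on the plus strand, both from RefSeq on GRCm38.p6 and written 5′ to 3′. Capitals mark the one stretch that holds ACGTG, the core of the hypoxia response element.
Prok2: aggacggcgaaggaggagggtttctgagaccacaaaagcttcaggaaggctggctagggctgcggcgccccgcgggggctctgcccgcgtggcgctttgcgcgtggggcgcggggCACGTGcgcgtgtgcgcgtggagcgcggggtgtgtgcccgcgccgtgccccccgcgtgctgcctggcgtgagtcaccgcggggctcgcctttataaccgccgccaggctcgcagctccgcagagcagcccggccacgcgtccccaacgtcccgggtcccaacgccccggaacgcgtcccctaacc
Igfbp6: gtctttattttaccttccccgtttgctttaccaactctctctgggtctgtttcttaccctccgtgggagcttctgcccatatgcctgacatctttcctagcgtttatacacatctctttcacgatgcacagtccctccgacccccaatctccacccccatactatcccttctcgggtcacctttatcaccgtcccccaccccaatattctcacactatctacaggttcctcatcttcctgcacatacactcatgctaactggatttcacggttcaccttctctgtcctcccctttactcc
The CACGTG of Prok2 is a palindrome and so counts as 2 overlapping matches of ACGTG, 1 on each strand, at 135 and 134 bases before the start (positions -135 and -134). The Igfbp6 window holds no match on either strand. It ends before 102144362, where the gene starts in GENCODE, so the 2 annotations differ and the bases at that start were not read. Neither window holds TTCNNNGAA, the gamma-activated site that STAT factors bind, and neither do those of the other members in the table (Cd274, Pdcd1lg2, Tgfb1, Vegfa, Lgals3 and Lgals9). ACGTG stands also in the windows of Cd274 and of the second Vegfa start, at chr17:46025114-46025413. Of 32851 RefSeq promoters of this length, 19.6% hold ACGTG and 8.3% hold TTCNNNGAA, so these letters are common, and a match is a description and not a site. Il10 and Lgals1 were not matched.

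Prok2 was a neutrophil transcript, and it was 30.8-fold higher in the neutrophil class of the PyMT library. Its level was 16.8 CPM (15.4 to 18.3; 510 UMIs) in wild-type and 517 CPM (510 to 523; 24979 UMIs) in PyMT neutrophils, a log2 ratio of 4.94 (4.82 to 5.07). Cells with at least 1 UMI made up 9.25% of the neutrophil class in the wild-type library and 65.3% in the PyMT library. After each cell was thinned to 2000 UMIs, a depth every cell had, the shares were 3.99% and 43.5%, against 0% and 3.52% of B cells. The gene, which codes for the chemokine-like prokineticin 2, spans chr6:99711299-99726392 on the minus strand of GRCm38 and overlaps 1 antisense gene model, Gm26748.

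Prok2 was graded along Camp in both libraries. In the wild-type library the level was 12.99 CPM with at least 4% Camp, 32.5 with 1 to 4% and 248 with under 1%, where 57 UMIs came from 56 cells and 1 cell held 31 of them. In the PyMT library it was 88.4, 439 and 1499 CPM. The tier with the least Camp thus exceeded the tier with the most 19.1-fold in wild-type and 17.0-fold in PyMT neutrophils. Without the cell with most Prok2 UMIs in each tier the gradients were 9.30-fold and 17.2-fold, so the wild-type size rests on 1 cell and its direction does not. Within a tier the PyMT library was higher 6.80-fold, 13.5-fold and 6.04-fold, the last of which was 12.9-fold without that cell. Within each tier the libraries thus differed less than the classes as a whole, but the tiers were not matched for Camp. The median Camp share was 7.27% in wild-type and 4.855% in PyMT cells of the tier with at least 4%. It was 3.05% and 2.84% with 1 to 4%, and 0.516% and 0.176% with under 1%. Another granule gene differed at like Camp: at 2 to 4% Camp, Ngp was at 27150 CPM in wild-type and 44790 CPM in PyMT cells. Weighting the tiers of both libraries by the wild-type mix gave 16.8 and 135 CPM, a log2 ratio of 3.01 in place of 4.94. With finer Camp bins the PyMT level was 88.7 CPM at 4 to 8% Camp, 327 at 2 to 4%, 895 at 1 to 2%, 1431 at 0.3 to 1%, 1574 at 0.1 to 0.3% and 1361 under 0.1%. It therefore levelled off at the lowest Camp shares. The bins read from at least 20 cells are shown in the plot of Camp bins.

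**Figure D2:**
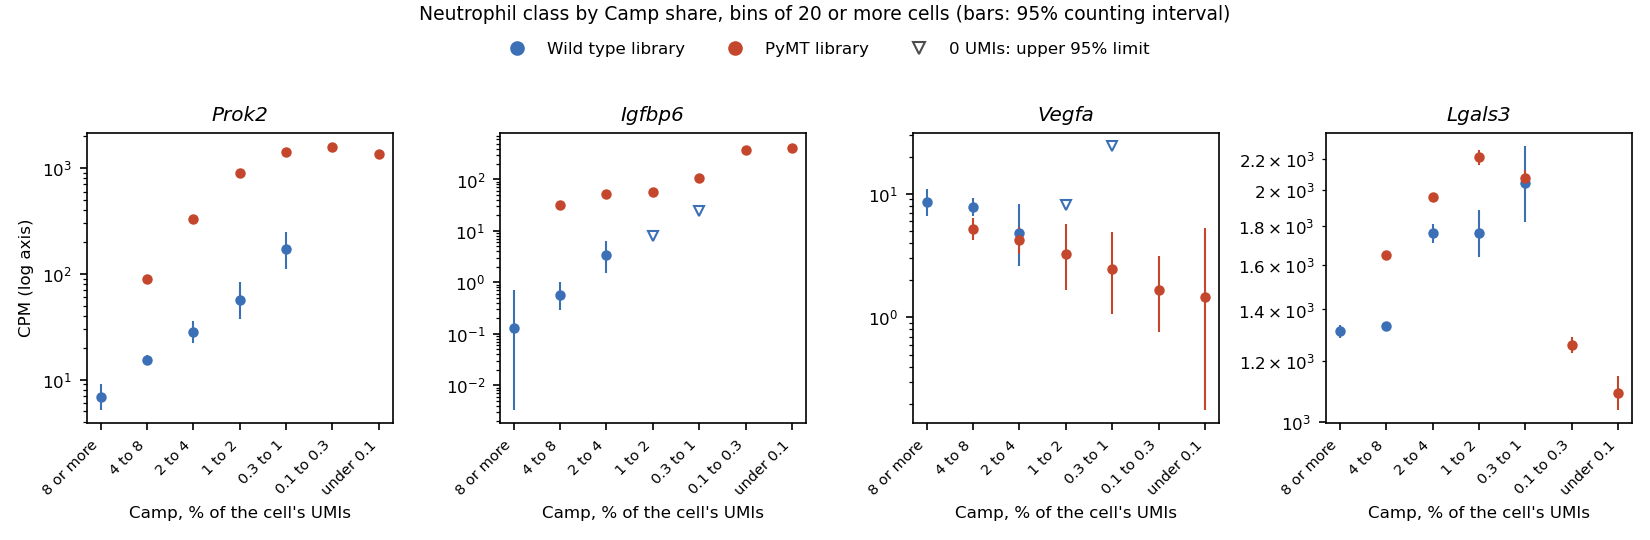
Level in CPM (log axis) of Prok2, Igfbp6, Vegfa and Lgals3 in neutrophil-class cells binned by the share of Camp among their UMIs (x axis, from high to low). Blue is the wild-type and red the PyMT library, bars are 95% counting intervals and open triangles upper limits where 0 UMIs were counted; Prok2 and Igfbp6 are higher in PyMT in every shared bin with a value in both, and Vegfa runs the opposite way along Camp.

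Outside neutrophils Prok2 stood at a small share of its neutrophil level, near the shares of Ngp and Camp. In the PyMT library it was 18.1 CPM in the monocyte class, 16.6 in the B cell class and 10.7 in T cells. These are 3.501% (3.05 to 4.01), 3.203% (2.497 to 4.05) and 2.08% (0.763 to 4.53) of its neutrophil level. The granule gene Ngp stood at 3.31%, 3.62% and 3.26% of its neutrophil level in the same classes, Camp at 3.38%, 3.69% and 3.45% and the neutrophil alarmin gene S100a8 at 4.04%, 4.16% and 3.95%. The abundant transcript Retnlg stood at 7.04%, 7.46% and 6.70%. Genes of more mature neutrophils stood higher, with Cxcr2 at 17.9%, 22.6% and 9.33% and Csf3r at 49.8%, 30.7% and 13.8%. In the wild-type library Cxcr2 stood at 13.5%, 29% and 16.6% and Csf3r at 86.8%, 34.7% and 14.2%. Csf3r thus did not set neutrophils apart from monocytes there. Against its level in neutrophils with under 1% Camp, Prok2 stood at 1.21%, 1.1% and 0.717%. Whether the Prok2 UMIs of these classes are free RNA or expression was not tested. In the wild-type library the monocyte class held 2 Prok2 UMIs and the B cell class 0, against which the PyMT level of the B cell class is at least 7.22-fold higher, counting 3 UMIs for the wild-type class.

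**Figure D3:**
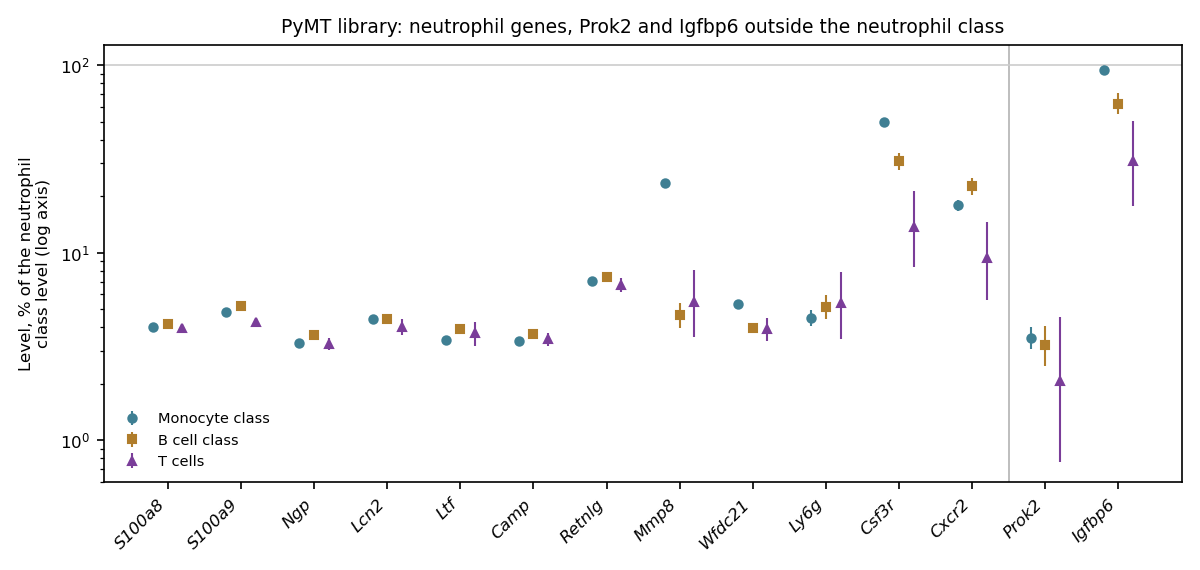
Level of 12 neutrophil markers, Prok2 and Igfbp6 in the monocyte class, the B cell class and T cells of the PyMT library, as a percentage of each gene's level in the neutrophil class (y axis, log). Bars are 95% counting intervals; Prok2 lies at 2.08 to 3.501% beside Ngp and Camp, while Igfbp6 lies at 30.9 to 93.9%.

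Igfbp6 had the highest ratio of the 10 ligands in the neutrophil class. It was nearly absent from the wild-type library, with 51 UMIs in all 5491 cells, and had 6934 UMIs in 9150 PyMT cells. In the neutrophil class the level was 0.691 CPM (0.428 to 1.06; 21 UMIs) and 92.8 CPM (90.1 to 95.6; 4486 UMIs), a log2 ratio of 7.07 (6.45 to 7.76). A single wild-type cell held 5 of the 21 UMIs, and without the cell with most UMIs in each library the log2 ratio was 7.46. The gene lies at chr15:102144362-102149511 on the plus strand and overlaps no other gene model.

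Along Camp, Igfbp6 in PyMT neutrophils was 31.9 CPM in the tier with at least 4%, 52.4 with 1 to 4% and 288 with under 1%. Its steepest step came at lower Camp than that of Prok2: it was 56.9 CPM at 1 to 2% Camp, 105 at 0.3 to 1%, 367.5 (351.5 to 384) at 0.1 to 0.3% and 406 (373 to 442) under 0.1%. The wild-type tiers held 12, 9 and 0 UMIs. Against them the PyMT tiers were higher by log2 6.17 (5.35 to 7.13), 4.19 (3.26 to 5.32) and, with 3 UMIs counted for the empty tier, 22.1-fold. Without the cell with most UMIs the second of these was 5.34. In the PyMT tier with under 1% Camp, thinned to 2000 UMIs a cell, Igfbp6 was found in 34.2% (31.7 to 36.7) of the 1394 cells with Prok2 and in 46.8% (42.9 to 50.6) of the 663 cells without it. With 1 to 4% Camp the shares with and without Prok2 were nearly equal, at 7.44% (5.68 to 9.53) and 7.94% (6.37 to 9.74). The order was the other way with at least 4% Camp, at 5.29% (2.76 to 9.05) and 4.53% (3.495 to 5.75). It was also the other way in the monocyte class, at 25.5% (14.7 to 39.0) and 14.3% (12.5 to 16.2). The intervals overlap in each of these groups. These are cells of 1 library, and the difference was not tested.

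Igfbp6 was also counted outside the neutrophil class. In the PyMT library it was 87.1 CPM in the monocyte class, 57.9 in the B cell class and 28.7 in T cells, or 93.9%, 62.4% and 30.9% of the neutrophil level. These shares exceed those of Ngp and Camp. Among genes high in Camp-low PyMT neutrophils, Il1b stood at 50.1%, 68.2% and 31.2% and Socs3 at 89.6%, 54.5% and 69.2%. In the wild-type library Il1b stood at 342%, 378% and 315% of its neutrophil level in these classes, and Socs3 at 491%, 170% and 180%. Neither gene was thus particular to neutrophils there, and Csf3r, at 86.8% in the wild-type monocyte class, did not set neutrophils apart from monocytes. Against its level in PyMT neutrophils with under 1% Camp, Igfbp6 had shares of 30.3%, 20.1% and 9.96%. They were 14.6%, 19.9% and 9.09% for Il1b and 26.4%, 16.1% and 20.4% for Socs3. For Csf3r they were 17.8%, 11% and 4.93%, for Cxcr2 7.07%, 8.93% and 3.69% and for Steap4 7.4%, 12.1% and 4.76%. Of these genes, Il1b lay nearest to Igfbp6 in B and T cells and Socs3 in monocytes. Wild-type levels were 2.74 CPM (9 UMIs) in the monocyte class and 3.82 CPM (5 UMIs) in the B cell class, giving log2 ratios of 4.99 (4.06 to 6.12) and 3.92 (2.68 to 5.56). One wild-type B-class cell held 4 of the 5 UMIs, and without the cell with most UMIs in each library the second ratio was 6.19. The transcript was unevenly spread: the tenth of PyMT B-class cells with most of it held 230 of 245 UMIs. Il1b, Cxcr2 and Csf3r were higher in the cells that held it. In the 124 B-class cells with an Igfbp6 UMI, the cytokine gene Il1b was at 1440 CPM, the chemokine receptor gene Cxcr2 at 350 and the G-CSF receptor gene Csf3r at 339, against 141, 40.2 and 38.9 CPM in the 957 without. In the monocyte class the same 3 genes were at 387, 122 and 179 CPM in the 580 cells with Igfbp6 and 128, 26.5 and 95.1 in the 946 without. With stricter classes (S100a8 and S100a9 under 2%, and no UMI of the other class's receptor genes) Igfbp6 was 66.3 CPM in PyMT monocytes and 22.8 in PyMT B cells, so the B cell level was lowered over 1.5 times and both stayed above the wild-type values of 2.02 and 0.913. The part that neutrophil transcripts in these cells have in the result was not tested.

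Vegfa, the main angiogenic growth factor, was scarce and ran opposite to Prok2. It was 7.57 CPM (6.62 to 8.61; 230 UMIs) in wild-type and 4.10 CPM (3.55 to 4.71; 198 UMIs) in PyMT neutrophils, and 2 and 5 UMIs were counted in the monocyte classes. The log2 ratio of -0.89 (-1.17 to -0.61) lay at -0.42 relative to the median gene. In the PyMT library Vegfa was 5.29 CPM with at least 4% Camp, 4.03 with 1 to 4% and 1.90 with under 1%. In the wild-type library it was 8.03 and 4.15 CPM in the first 2 tiers, with 0 UMIs in the third, where the 95% limit is 16.0 CPM. Within the tiers the log2 ratios were -0.60 (-0.95 to -0.26) and -0.04 (-0.90 to 0.93). The TMM scaling gave -0.43 for the class and -0.15 in the tier with at least 4% Camp, both under 1.5-fold, and 0.69 in the tier with 1 to 4% Camp, where it turned the direction.

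**Figure D4:**
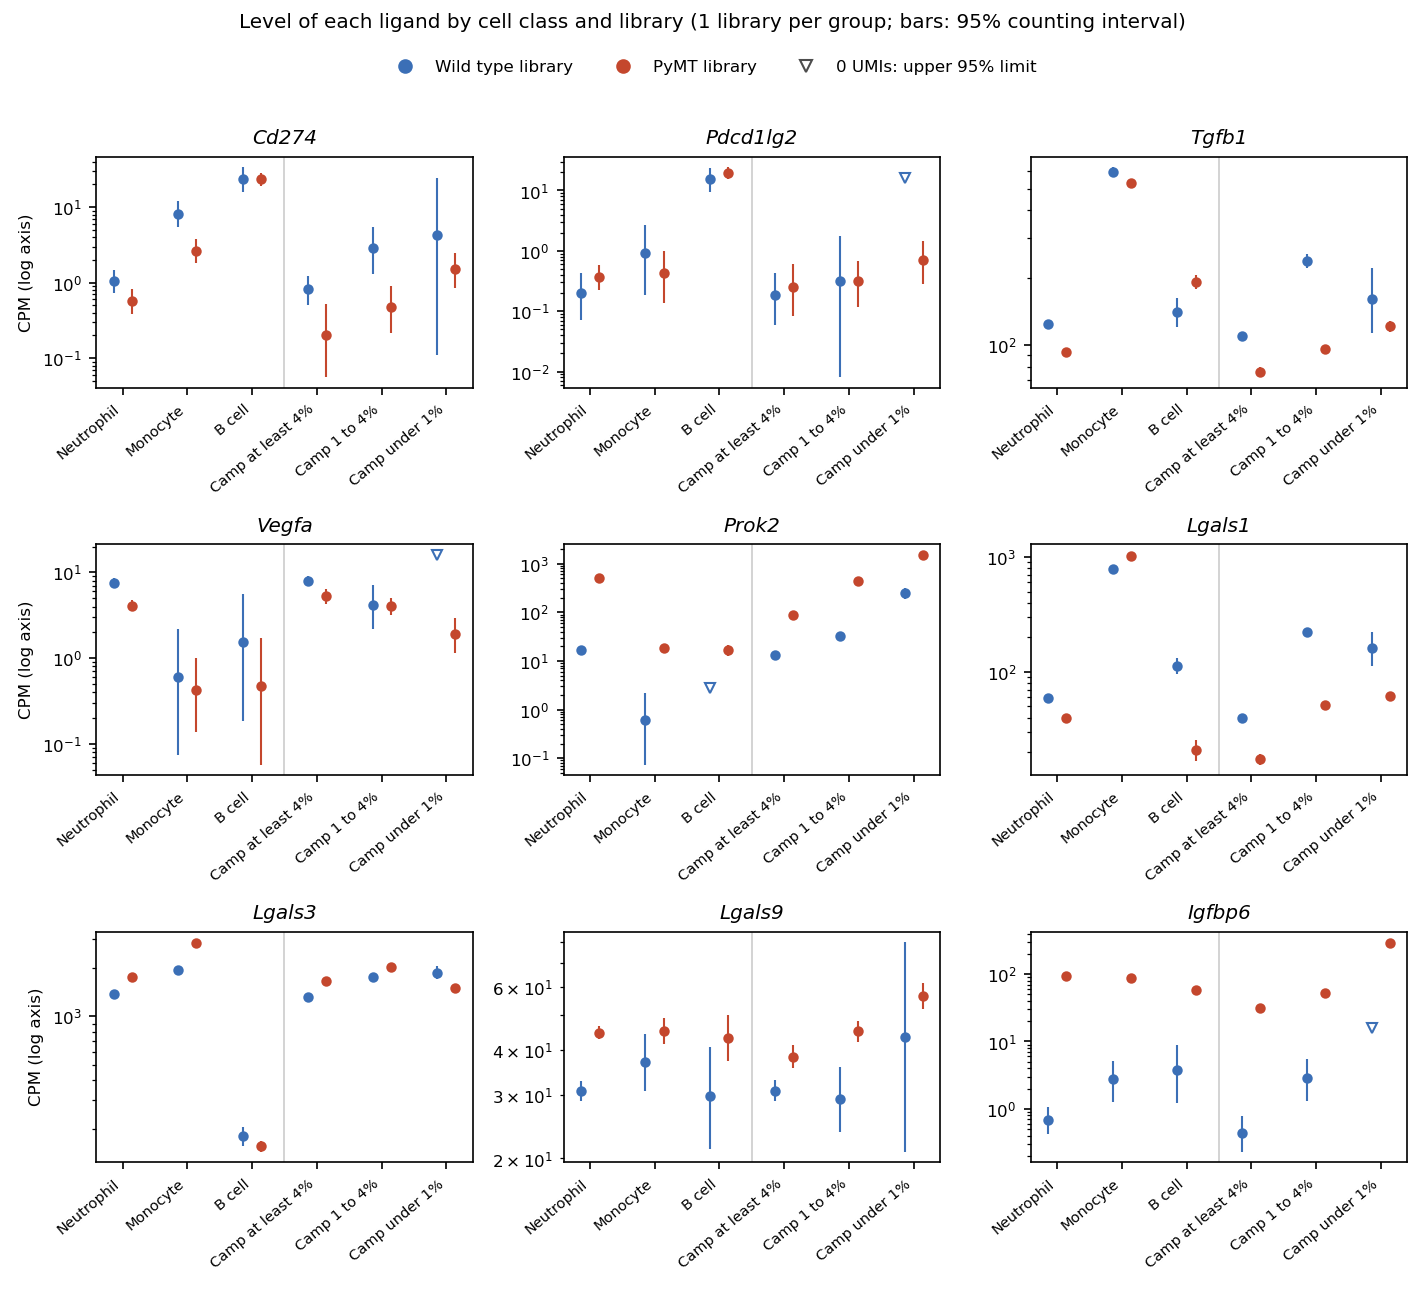
CPM (log axis, scale differing by panel) of 9 of the 10 ligands in the neutrophil, monocyte and B cell class and, right of the grey line, in the 3 Camp tiers of the neutrophil class. Blue is the wild-type and red the PyMT library, bars are 95% counting intervals and open triangles upper limits for 0 UMIs; of the groups drawn, Cd274 and Pdcd1lg2 are highest in B cells, Tgfb1 and Lgals1 in monocytes, Prok2 and Vegfa in neutrophils, and Lgals9 is nearly level. Il10, with 6 UMIs in all, is not drawn.

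Of the 3 classes, B cells had the highest levels of both PD-1 ligands. They held 22.3% of the Cd274 UMIs of the wild-type library, where neutrophils held 23.0% and cells of no class 28.8%, and 46.7% in the PyMT library. Cd274 was 23.7 CPM (16.1 to 33.7) in wild-type and 23.4 CPM (19.0 to 28.5) in PyMT B cells, and the intervals overlap almost wholly. In neutrophils it was 1.05 and 0.579 CPM, from 32 and 28 UMIs. Pdcd1lg2 was 15.3 CPM (9.34 to 23.6) and 19.4 CPM (15.4 to 24.1) in B cells, and 0.197 and 0.372 CPM in neutrophils from 6 and 18 UMIs. The log2 ratios in B cells were -0.02 (-0.61 to 0.61) for Cd274 and 0.34 (-0.38 to 1.13) for Pdcd1lg2, so no difference was detectable at this depth. The lower Cd274 of PyMT neutrophils (log2 -0.86, -1.65 to -0.08) changed direction to 0.51 once cells with 2 or more Csf1r and Ccr2 UMIs were left out, which held 22 of the 32 wild-type UMIs. Both genes lie side by side on chromosome 19 (chr19:29367455-29388095 and chr19:29410919-29471161, plus strand), and each overlaps 1 antisense gene model.

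In the monocyte class Cd274 was 8.23 CPM (5.42 to 11.97; 27 UMIs) in wild-type and 2.65 CPM (1.80 to 3.76; 31 UMIs) in PyMT cells, a log2 ratio of -1.64 (-2.43 to -0.84). Nonclassical monocytes, the patrolling subset with Ace or Treml4, held more than classical ones: 19.0 CPM (9.47 to 33.9) and 14.2 CPM (5.21 to 30.9), from 11 and 6 UMIs, with intervals that overlap those of B cells. Classical monocytes with Ly6c2 had 0.946 and 1.07 CPM, from 1 and 7 UMIs. Monocyte-class cells of no subset held most of the UMIs, 15 and 18, at 11.45 and 4.26 CPM, with a log2 ratio of -1.43 (-2.50 to -0.33). Nonclassical cells numbered 104 among 530 cells of the monocyte class in wild type and 73 among 1526 in PyMT, so the mix of subsets moved with the ratio, and its part in it was not tested.

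Tgfb1 was highest in monocytes and was under 1.5-fold apart between the libraries in all 3 classes, though not in every Camp tier. The monocyte class had 596 CPM (570 to 623) in wild-type and 531 CPM (518 to 544) in PyMT cells, which is a log2 ratio of -0.17 (-0.24 to -0.09). Nonclassical monocytes had 707 and 749 CPM and classical monocytes 544 and 466. In neutrophils Tgfb1 was 124 CPM (120 to 128) in wild-type and 92.9 CPM (90.2 to 95.7) in PyMT cells, which is a log2 ratio of -0.41, close to the -0.47 of the median gene, and 0.04 with TMM. In B cells it was 140 CPM (120 to 162) in wild-type and 192 CPM (179 to 205) in PyMT cells, with a log2 ratio of 0.45 (0.22 to 0.69). That ratio was -0.02 when the cells that met both rules were counted in both classes. Neutrophil-class cells with 2 or more Csf1r and Ccr2 UMIs held 297 and 250 CPM of Tgfb1, and without them the wild-type and PyMT neutrophils had 79.4 and 78.7 CPM. The neutrophil log2 ratio was then -0.01. In the tier with 1 to 4% Camp Tgfb1 was 237 CPM in wild-type and 95.8 CPM in PyMT cells, a log2 ratio of -1.31 (-1.43 to -1.18), and of -0.45 without those cells. Il10 had 5 wild-type UMIs and 1 PyMT UMI in all, among 42542700 and 73416834 UMIs, so its level could not be compared at this depth.

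Lgals1, which codes for galectin 1, was highest in monocytes among the 3 classes and low in neutrophils. The monocyte class had 782 CPM (752 to 813) in wild-type and 1026 CPM (1007 to 1044) in PyMT cells, a log2 ratio of 0.39 (0.33 to 0.45). Within it classical monocytes had 867 and 1270 CPM, and nonclassical monocytes 605 and 442 CPM. The 2 subsets thus differed in opposite directions, with log2 ratios of 0.55 (0.45 to 0.65) and -0.45 (-0.72 to -0.19). Dendritic cells, marked by Cd209a or Flt3, had 1180 and 820 CPM, the 55 and 139 T cells 808 and 663 CPM, and the 12 and 13 NK cells 5763 and 2282 CPM. The 5 dendritic cell markers summed to 95.4 and 17.8 CPM in the monocyte class, with none at 0. The 5 progenitor markers moved the other way, from 42.4 to 245 CPM in the class and from 71.0 to 327 CPM in classical monocytes, with none at 0. The part of either list in the Lgals1 ratios was not tested.

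In the neutrophil class Lgals1 was 59.4 CPM (56.7 to 62.2) in wild-type and 39.9 CPM (38.1 to 41.7) in PyMT cells. The log2 ratio was -0.57 for the class and -1.19, -2.11 and -1.38 in the tiers with at least 4%, 1 to 4% and under 1% Camp. The 9 monocyte markers summed to 1697 and 1632 CPM in the class and to 2419 and 1268 CPM in the tier with under 1% Camp, where all 37 wild-type UMIs came from 7 cells. The values rest on few cells throughout: 394 wild-type neutrophil-class cells with 2 or more Csf1r and Ccr2 UMIs held 1529 of the 1806 Lgals1 UMIs, at 248 CPM. Such cells made up 9.9% (wild type) and 5.47% (PyMT) of the class, and 31.6% and 7.56% of the tier with 1 to 4% Camp. Without them Lgals1 was 11.4 CPM in wild-type and 17.6 CPM in PyMT neutrophils, and the log2 ratio turned to 0.62. In the tier with at least 4% Camp it turned from -1.19 to 0.66, while with 1 to 4% Camp it stayed negative at -1.02. In the tier with under 1% Camp the wild-type library then held 0 UMIs in 49 cells and the PyMT library 20.7 CPM. The plot of the split class shows that Prok2 and Lgals3 kept their direction.

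**Figure D5:**
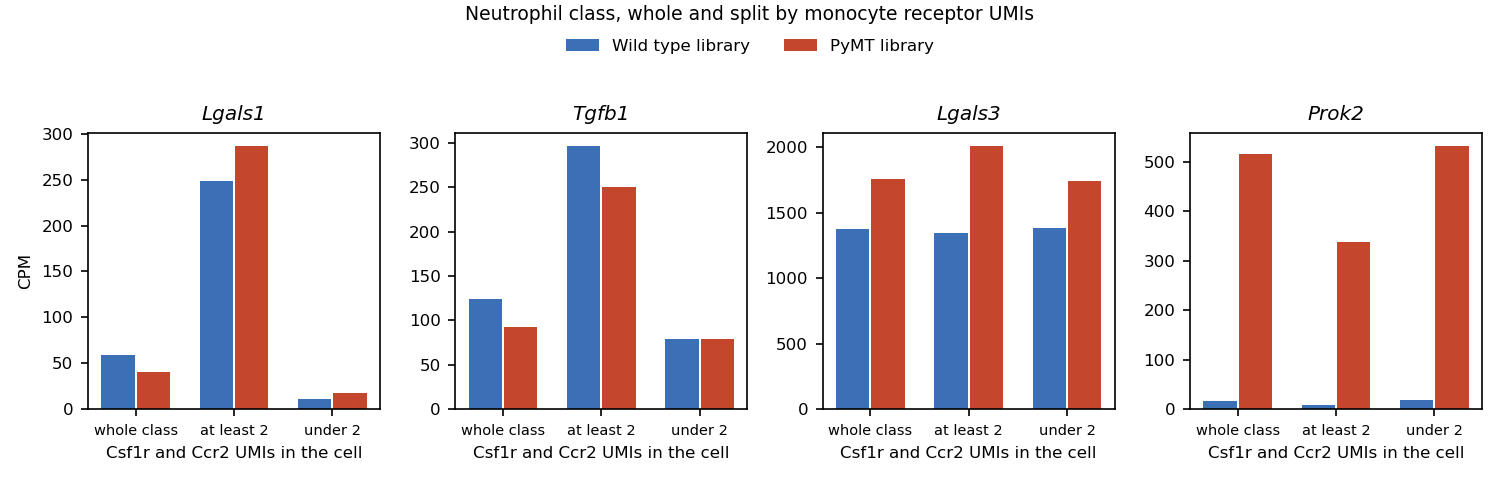
CPM (y axis, from 0) of Lgals1, Tgfb1, Lgals3 and Prok2 in the neutrophil class, whole and split into cells with at least 2 or under 2 UMIs of the monocyte receptor genes Csf1r and Ccr2. Blue is the wild-type and red the PyMT library, 1 library each; Lgals1 is 59.4 and 39.9 CPM in the whole class but 11.4 and 17.6 CPM in cells with under 2.

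In the B cell class Lgals1 was 113 CPM (95.7 to 133; 148 UMIs) in wild-type and 20.8 CPM (16.7 to 25.6; 88 UMIs) in PyMT cells, 5.44-fold lower, with a log2 ratio of -2.44 (-2.84 to -2.05). One wild-type cell held 41 UMIs, the tenth of cells with most held 136 of 148, and without the cell with most UMIs in each library the log2 ratio was -2.02. The 5 NK cell markers, whose own cells had the highest Lgals1, summed to 146 CPM in wild-type B-class cells and 23.4 CPM in those of PyMT mice, and none of the 5 was at 0 in either. Their part in the difference was not tested.

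Lgals3, which codes for galectin 3, was the most abundant of the 10 ligands by UMIs in both libraries. It was 1374 CPM (1361 to 1388) and 1759 CPM (1747 to 1771) in neutrophils, 1934 CPM (1886 to 1982) and 2856 CPM (2826 to 2887) in monocytes, and 180 and 155 CPM in B cells. The log2 ratios were 0.36 (0.34 to 0.37) in neutrophils and 0.56 (0.52 to 0.60) in monocytes, under 1.5-fold in both. Along Camp it had no single direction in the PyMT library: 1647 CPM with at least 4%, 2208 at 1 to 2% and 1090 under 0.1%. In the tier with under 1% Camp the ratio was below 0, at -0.32 (-0.46 to -0.18), from 430 wild-type UMIs. TMM scaling turned that value to 0.20.

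Lgals9, which codes for galectin 9, was nearly level across classes and somewhat higher in the PyMT library. Wild-type levels were 30.8 CPM (28.9 to 32.9) in neutrophils, 37.2 (30.9 to 44.4) in monocytes and 29.8 (21.2 to 40.8) in B cells, with overlapping intervals. PyMT levels were 44.8 (43.0 to 46.8), 45.3 (41.5 to 49.3) and 43.3 (37.2 to 50.03), also overlapping. The log2 ratios were 0.54 (0.43 to 0.65), 0.29 (-0.0010 to 0.58) and 0.54 (0.03 to 1.08), which is 1.01 above the median gene in neutrophils but only 0.26 and 0.42 above it in the other classes. With TMM the neutrophil ratio was 0.99, past 1.5-fold.

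The receptors and relatives of these ligands were read from lists of pathway genes. Of 20 receptors and binding partners, 9 had enough UMIs in the neutrophil class, 0 were at least 1.5-fold higher and 5 were lower, against 7.11% and 42.6% of all genes. The list's median was -0.64 (log2), beside -0.47 for all genes compared, and with TMM 1 was higher and 1 lower. The largest difference was in Nrp1, a VEGF co-receptor, at 26.1 and 5.59 CPM (log2 -2.23, -2.43 to -2.02; -1.77 with TMM). Cd80, a binding partner of PD-L1, was at 2.17 and 1.08 CPM, and Tgfbr1, a TGF-beta receptor chain, at 16.5 and 9.77 CPM, both under 1.5-fold with TMM. In monocytes 4 of 13 were lower and 0 higher, against 7.77% and 8.77% of all genes, with the VEGF receptor gene Flt1 at 14.9 and 3.24 CPM (log2 -2.20). Of 25 family relatives, 5 were read in neutrophils and 1 was lower, Igfbp4, another binding protein of insulin-like growth factors, at 115 and 25.4 CPM (log2 -2.18; -1.72 with TMM). Igfbp4 thus differed in the opposite direction to Igfbp6 in the whole class. Neutrophil values of pathway genes, here and below, include cells with 2 or more Csf1r and Ccr2 UMIs and were not read without them. The receptor list's median was -0.73, -1.40 and -0.10 in the tiers with at least 4%, 1 to 4% and under 1% Camp. The medians of all genes were -0.45, -0.57 and -0.23.

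Of 13 genes of TGF-beta latency and activation, 2 of the 5 read in neutrophils were lower and 0 higher, which is near the 42.6% of all genes that were lower, and with TMM 2 lower and 1 higher. Thbs1, whose product can activate latent TGF-beta, was at 143 and 3.23 CPM (log2 -5.47, -5.71 to -5.24), and the integrin gene Itgav at 5.73 and 2.34 CPM. Of 13 hypoxia response genes, 4 of 11 in neutrophils were higher and 2 lower, against 7.11% and 42.6% of all genes, and 5 of 9 in monocytes were higher and 0 lower, against 8.77% and 7.77%. With TMM 7 were higher and 0 lower in neutrophils, against 16.7% and 18.3% of all genes, and the monocyte counts were the same. The glucose transporter gene Slc2a1 was at 4.28 and 19.1 CPM in neutrophils and Ankrd37 at 0.658 and 7.14 CPM. Vegfa, itself a hypoxia target by textbook knowledge, had a log2 ratio of -0.89 in the neutrophil class, as given above. Of 18 regulators, 6 were higher and 5 lower in neutrophils, against the same 7.11% and 42.6%, and 8 and 1 with TMM, against 16.7% and 18.3%. In monocytes 3 were higher and 5 lower, against 8.77% and 7.77%. In B cells 4 of 15 regulators were higher and 2 lower, 1 of 3 relatives was higher, and 0 of the 6 receptors, 4 latency genes and 9 hypoxia genes were past the fold, against 12.9% higher and 4.19% lower among all genes. Socs3, the feedback inhibitor that STAT3 induces, was at 7.63 and 132 CPM in neutrophils (log2 4.11, 3.92 to 4.31) and at 37.5 and 118 CPM in monocytes. Csf3r, the G-CSF receptor gene, was at 96.97 and 260 CPM in neutrophils (log2 1.42).

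For each member with at least 200 UMIs, the 3 genes most like it were taken by Pearson's r of log2(CPM + 10) over 10 sums: the 3 Camp tiers, the monocyte class and the B cell class in each library. Over 8414 genes, those most like Prok2 were Rhov (r = 0.97), Rnd1 and Mcam, and those most like Igfbp6 were Socs3 (r = 0.94), Steap4 and Sema6b. Cd274 was most like Ciita (r = 0.99), the activator of MHC class II genes, Lgals1 most like Zeb2os (r = 0.98) and Tgfb1 most like Gltp (r = 0.995). Lgals3 was most like Arpc2 (r = 0.99), Vegfa most like Gpr157 (r = 0.98) and Lgals9 most like Wfdc17 (r = 0.93). These values describe 10 sums that share 2 libraries and their classes, and they carry no p.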

How the data were processed

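The data are 2 tables of UMI counts per gene and cell, deposited by the authors as counts without normalization, 1 for each library (10x Genomics Chromium 3' version 2 per the labels). The submitters' processing notes name Cell Ranger 2.1.0 and, as the genome build, mm10; no columns of other samples were present (0). The members and gene lists were chosen with earlier results of these data known. The cell filter asked for 200 or more detected genes and a mitochondrial share of 10% or less, which left out 5 PyMT cells. No doublet caller was run for the main values; a doublet score was an alternative. UMIs were summed per class and library and divided by the class total (CPM), with exact Poisson intervals for levels, exact conditional intervals for ratios and exact Clopper-Pearson intervals for shares, all at 95% (Python 3.11.15, numpy 2.4.6, scipy 1.17.1). A fold against 0 UMIs uses a floor of 3 UMIs in that class, so it is not a 95% limit. All 10 members are named; from each pathway list up to 4 genes with the largest log2 ratio among those with 50 UMIs could be named. The ratio script was tested on simulated data. One list of markers of another cell type is not reported here. Alternatives were TMM and median-of-ratios scaling, a class total that omits the 50 genes with most UMIs, cells weighted equally, other cell filters, stricter classes, doublets left out, other UMI minimums and other Camp cuts. Neutrophil-class cells with 2 or more Csf1r and Ccr2 UMIs left out, the wild-type tier mix, both-rule cells counted in both classes and the cell with most UMIs of a gene left out were alternatives chosen after seeing the data. Gene positions are from GENCODE on GRCm38 and promoters from RefSeq.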

Additional observations from a re-analysis of the deposited data

Results flagged for a closer look

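Ratios of some members pointed opposite ways in 2 classes, with both counting intervals off 0; with 1 library per group none of these differences was tested. The log2 ratio of Tgfb1 in the B cell class exceeded that in the neutrophil class by 0.87 and that in the monocyte class by 0.62. The log2 ratio of Lgals1 in the monocyte class exceeded that in the neutrophil class by 0.97, and its B cell ratio minus its monocyte ratio was -2.83. For Lgals3 the ratio in neutrophils with under 1% Camp minus that in neutrophils with at least 4% Camp was -0.63. With TMM the Lgals3 ratio with under 1% Camp was 0.20, so both then pointed the same way, and the B cell ratio of Tgfb1 was -0.02 with the cells of both rules counted in both classes. The neutrophil values of Lgals1 and Tgfb1 rest on cells with Csf1r and Ccr2 UMIs, as given above.

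Cells outside the classes also held the 2 transcripts with the highest ratios. Among cells with 5 to 10% S100a8 and S100a9 (65 wild-type and 238 PyMT cells) the log2 ratio was 5.28 for Prok2 and 4.72 for Igfbp6. Among cells of no class (545 and 665 cells) it was 5.49 for Prok2 and 6.40 for Igfbp6. In the first of these sets Igfbp6 reached 305 CPM in the PyMT library, above the 288 CPM of neutrophils with under 1% Camp.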

How the results depend on the processing

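No paired analysis was possible because each group is 1 library. Of 140 recomputed counts of ligands past 1.5-fold, 111 were within 1.5 times the main count. Of 458 recomputed log2 ratios of single ligands, 326 lay within the main counting interval and 32 changed sign. Some alternatives could hardly move a value, so these totals do not measure stability. Without the cell filter, for example, the PyMT monocyte and B cell class kept their 1526 and 1081 cells. Prok2 and Igfbp6 stayed at least 1.5-fold higher in all recomputed ratios that were run on them. With TMM and with median-of-ratios scaling, 4 ligands were higher and 0 lower in the neutrophil class, 4 and 1 with at least 4% Camp, and 5 and 1 with 1 to 4% Camp. With equal weight per cell the lower counts were 1 in the neutrophil class, 0 with at least 4% Camp and 2 with under 1% Camp. With stricter classes they were 1 in the neutrophil class, 0 in monocytes, 1 with at least 4% and 1 with 1 to 4% Camp. The monocyte count fell because Cd274, with 20 wild-type and 18 PyMT UMIs, missed the minimum of 50. Its monocyte levels were still 8.08 CPM in wild-type and 2.32 CPM in PyMT cells. With a minimum of 200 UMIs, 1 ligand was lower in the neutrophil class and 0 in monocytes, and 1 was higher in B cells, since fewer ligands were tested. Without the 50 most abundant genes 1 was lower with at least 4% Camp. Leaving out 241 wild-type and 670 PyMT cells most like simulated doublets gave 1 lower with at least 4% Camp and 2 with under 1%. Without neutrophil-class cells holding 2 or more Csf1r and Ccr2 UMIs, 1 was lower in the class, 1 with at least 4%, 1 with 1 to 4% and 0 with under 1% Camp. The neutrophil ratio of Cd274 was 0.57 with equal weight per cell, 0.46 with stricter classes and 0.51 without those cells, in place of -0.86. With stricter classes it rests on 9 wild-type and 20 PyMT UMIs, and without those cells on 10 and 26. Both are under the minimum of 50 UMIs, so its direction could not be read there. The ratio of Lgals1 with at least 4% Camp turned to 0.77 with stricter classes and 0.66 without those cells. With under 1% Camp both alternatives left 0 wild-type Lgals1 UMIs. Counting 3 UMIs instead gave -0.009 with stricter classes and 0.19 without those cells, so the direction could not be read. Apart from the 200-UMI minimum and the counts that Cd274 left for want of UMIs, the cause was not tested. Depth limits Il10 everywhere, Pdcd1lg2 outside B cells and Vegfa outside neutrophils, where under 50 UMIs were counted over both libraries.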
